A study of Mus musculus with 14 samples.

Results

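Acute phase proteins are plasma and tissue proteins whose amounts in blood shift during inflammation, and most are made by hepatocytes. The 10 genes described here were taken by symbol from a list: the serum amyloid A genes Saa1, Saa2, Saa3 and Saa4, the lipocalin gene Lcn2, the orosomucoid genes Orm1 and Orm2, haptoglobin (Hp), haemopexin (Hpx) and the metalloreductase gene Steap4. All 10 were found in each of the 3 deposited tables, out of 29739 symbols listed in any of them. The rule that picks them is this list of names.

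In the liver, interleukin 6 and related cytokines signal through the shared receptor chain gp130 to the transcription factor STAT3, and interleukin 1 and tumour necrosis factor signal to NF-kB. Together with C/EBP factors these switch on acute phase genes, so that serum amyloid A, which travels on high-density lipoprotein, can rise steeply within a day of an injury. Haptoglobin captures free haemoglobin and haemopexin captures free haem, orosomucoids carry small lipophilic ligands, lipocalin 2 withholds iron from bacteria by binding siderophores, and STEAP4 reduces iron and copper ions at membranes.

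Mouse liver gave 12 bulk RNA libraries in 4 groups of 3, and 2 libraries of single nuclei. By the labels, 6 bulk libraries came from wild type and Ms4a7 KO (knockout) mice that had all been fed a diet inducing nonalcoholic steatohepatitis (NASH) for 22 weeks. The other 6 came from wild type mice on chow that received lipid droplets (LD) or, as control, phosphate-buffered saline (PBS) into the tail vein on 6 days in a row. Each nucleus library pooled 3 livers of 1 genotype, wild type or Ms4a7 KO, after the same NASH diet. Sex, age, strain and the design of the Ms4a7 allele are not given in the sources used here. No label says whether replicates were separate animals, so p-values measure the spread between these libraries, which may be technical. In bulk liver, fewer cells of a type and less RNA per cell cannot be told apart.

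The targeted gene went against the genotype labels. Ms4a7, which encodes a membrane protein of macrophages, was higher in every library labelled KO, at 102, 117 and 136 normalized counts, than in those labelled wild type (WT), at 9.70, 25.8 and 23.3 (log2 fold change 2.63 ± 0.37 SE, limma adjusted p = 0.0149). In the other table it was at 62.2, 84.7 and 163 in the libraries labelled PBS and at 10.5, 7.60 and 9.32 in those labelled LD (-3.26 ± 0.39, limma adjusted p = 0.00428). The submitters also named the first table for lipid droplets, and its own header calls the libraries labelled WT untreated and those labelled KO treated, while the second table is named for Ms4a7. Whether the labels of the 2 tables are exchanged could not be settled, so it is not known whether the first comparison concerns Ms4a7 or lipid droplets, and the same holds for the second. The diet behind the bulk libraries of each table, NASH diet or chow, is open in the same way. Groups are therefore called labelled WT, labelled KO, labelled PBS and labelled LD, and each direction below is one between labels. Depth ran from 21945394 to 23126164 reads in genes for the first table and from 39318264 to 41346464 for the second, and the defining hepatocyte markers Alb, Apob and Cps1 were detected throughout. Normalized counts below are gene counts divided by the library's size factor. Fold changes are limma estimates ± SE on log2 of the normalized count plus 1, each with a Benjamini-Hochberg adjusted p over all genes tested and a threshold of 0.05.

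Promoter stretches are shown for 4 members that the tests below called (Saa2, Orm2, Hpx and Steap4) and for 2 relatives of Saa2 that they did not. RefSeq promoters (build GRCm38.p6) from 250 bases before to 50 bases after the start were matched by symbol for 8 of the 10 genes, all but Hp and Orm1. Capitals in the first 5 stretches, each 150 bases long and beginning 200 bases before the start, mark matches on either strand to TTNNGNAA, a short form of the C/EBP site. Saa1 (chr7:46743031-46743180, minus strand), Saa2 (chr7:46751633-46751782, plus strand), Saa3 (chr7:46715727-46715876, minus strand), Orm2 (chr4:63362249-63362398, plus strand) and Hpx (chr7:105600167-105600316, minus strand) read as follows, 5′ to 3′.
Saa1: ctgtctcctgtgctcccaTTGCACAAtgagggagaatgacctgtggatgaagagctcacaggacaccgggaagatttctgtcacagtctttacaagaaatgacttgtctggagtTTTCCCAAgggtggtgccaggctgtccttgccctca
Saa2: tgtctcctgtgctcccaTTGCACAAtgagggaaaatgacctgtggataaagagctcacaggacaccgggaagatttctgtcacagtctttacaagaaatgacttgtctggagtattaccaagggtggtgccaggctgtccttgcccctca
Saa3: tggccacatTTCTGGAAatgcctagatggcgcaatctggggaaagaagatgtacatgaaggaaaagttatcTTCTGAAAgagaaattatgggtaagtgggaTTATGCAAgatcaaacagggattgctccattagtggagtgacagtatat
Orm2: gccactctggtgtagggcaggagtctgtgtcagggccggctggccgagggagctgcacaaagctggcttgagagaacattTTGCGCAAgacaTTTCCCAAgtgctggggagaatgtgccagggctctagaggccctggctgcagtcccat
Hpx: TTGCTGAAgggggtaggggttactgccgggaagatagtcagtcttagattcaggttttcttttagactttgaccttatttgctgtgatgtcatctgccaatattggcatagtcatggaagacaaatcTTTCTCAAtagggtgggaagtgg
In the Steap4 stretch (chr5:7960222-7960371, plus strand), which is 150 bases long and begins 250 bases before the start, capitals mark 2 matches to the NF-kB consensus, 1 to CTGGGAA (the STAT3 acute phase element) and 1 to TTCNNNGAA (a STAT site), on either strand.
Steap4: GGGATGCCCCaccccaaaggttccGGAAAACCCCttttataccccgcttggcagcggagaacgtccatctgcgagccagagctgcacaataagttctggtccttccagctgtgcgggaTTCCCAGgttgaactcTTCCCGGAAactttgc

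Saa1 and Saa2, which lie head to head on chromosome 7, shared 95.6% of 249 aligned upstream bases. The upstream stretch of Saa1 matched that of Saa3 at 64.4% and that of Saa4 at 62.9% of aligned bases, against 62.1% for the unrelated Hpx. The short C/EBP form was present in all 8 promoter windows, but 40.7% of all 32851 mouse promoters in the table hold it too. Saa1 has 2 such matches and Saa2 has 1. Steap4 alone of the 8 matched the NF-kB consensus, CTGGGAA and TTCNNNGAA, which 4.51%, 11.1% and 8.30% of all promoters hold. In Steap4, 1 further C/EBP match overlaps the second NF-kB match and is not in capitals. A match is a description of letters and not evidence of binding.

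Levels per kilobase of merged exons placed the haem and haemoglobin scavengers at the top of the 10 genes in every bulk group. In the libraries labelled WT, Hpx stood at 102810 ± 5262 normalized counts per kilobase of merged exons (SD, n = 3), Hp at 48855 ± 3909 and Orm1 at 36299 ± 2334. Saa1 (14714 ± 909) and Saa2 (12490 ± 1656) came next, followed by Orm2 (6277 ± 714). Saa4 (3830 ± 887), Saa3 (3451 ± 2485) and Lcn2 (2831 ± 1409) lay within each other's spread, and Steap4 was lowest at 624 ± 189 per kilobase. In the libraries labelled PBS, the order again opened with Hpx (109619 ± 18360 per kilobase), Hp (84783 ± 7076) and Orm1 (29311 ± 3812). Saa1 (1935 ± 728) and Saa2 (1608 ± 431) now stood below Steap4 (2535 ± 228) in per-kilobase level, with Saa1 and Saa2 within each other's spread. Saa3 was lowest at 77.6 ± 4.97 per kilobase. The 2 tables were scaled separately, so these orders are read within a table. They also depend on the length used. Merged exons cover 2478 bases for Saa1 and 2518 for Saa2, but their longest coding transcripts have 609 and 652. Those lengths would raise both genes per kilobase, so their places among the 10 are not settled.

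**Figure D1:**
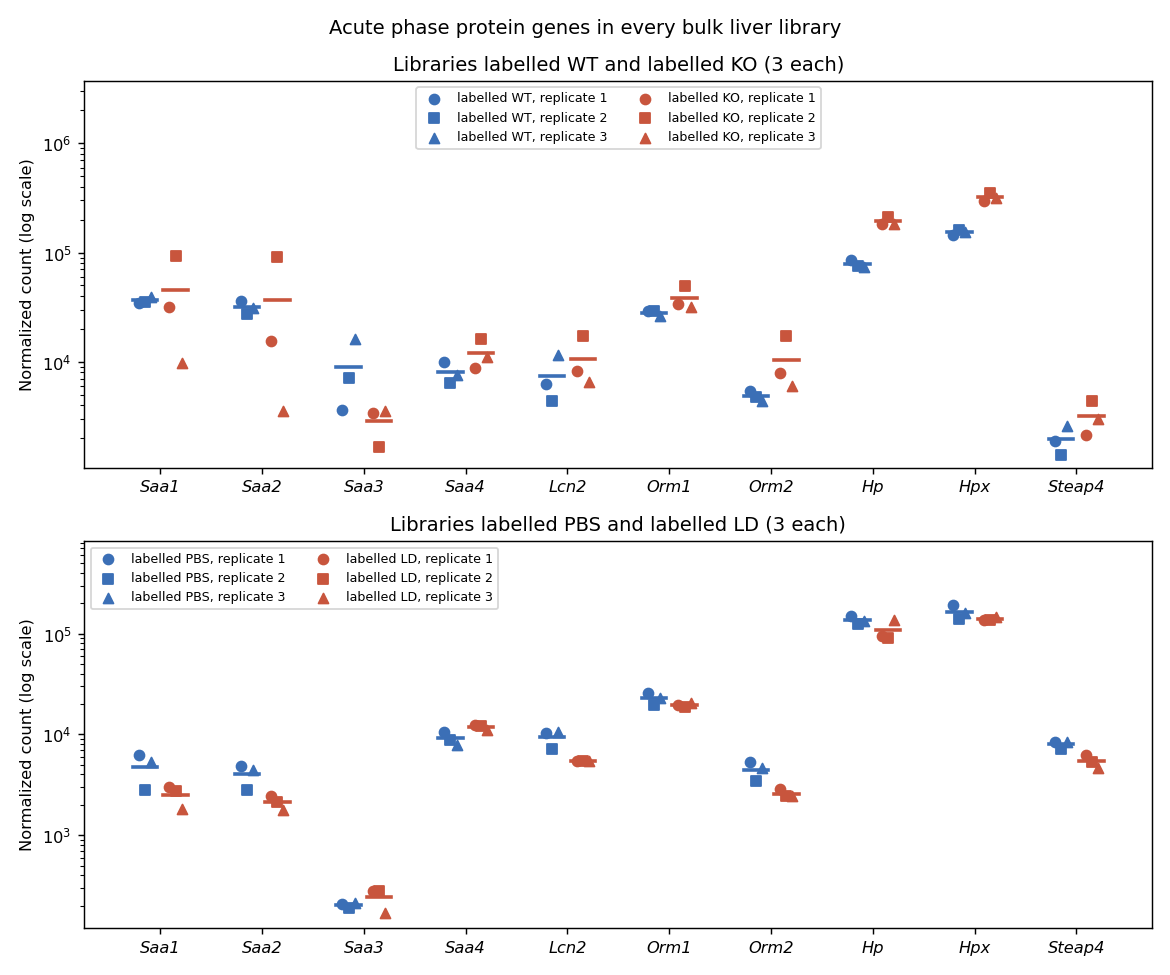
Normalized counts (log axis) of the 10 acute phase genes in every bulk library, by labelled group, with symbols for replicates and bars for group means. Hp and Hpx separate the libraries labelled WT and KO, while Saa1 and Saa2 span 9.50-fold and 26.0-fold among the 3 libraries labelled KO.

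The first comparison, by its labels, addresses Ms4a7 deficiency under the NASH diet. Of the 10 acute phase genes, 2 were higher in the libraries labelled KO, the scavenger genes Hp and Hpx, and 8 did not pass. Among all 15827 genes tested, 3.72% were called, 3.02% higher and 0.701% lower. The 3 libraries of one group lay apart from those of the other for 5 of the 10 genes, with Orm1, Orm2, Hp and Hpx above and Saa3 below; over all genes this share was 24.2%, 12.4% above and 11.7% below. The median log2 fold change of the 10 was 0.54, beside -0.02 over all genes tested. No member was called lower by limma, edgeR or DESeq2, and 1, Saa3, was lower at an unadjusted limma p under 0.05.

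Hp (chromosome 8, 109575128 to 109579172, minus strand) stood at 85642, 75729 and 74013 normalized counts in the libraries labelled WT and at 183111, 213432 and 182942 in those labelled KO. Every KO library was above every WT library, and the means differed 2.46-fold. The log2 fold change was 1.30 ± 0.17 (limma adjusted p = 0.0113), and the call held without any 1 of the 6 libraries, at adjusted p of up to 0.0431.

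Hpx (chromosome 7, 105591613 to 105600137, minus strand), on the same chromosome as the serum amyloid A genes but far from them, stood at 146347, 162117 and 153872 normalized counts in the libraries labelled WT. In those labelled KO it stood at 295848, 352746 and 313501, again without overlap and 2.08-fold higher on average. The log2 fold change was 1.05 ± 0.19 (limma adjusted p = 0.0315). This call was lost without WT replicate 1 (limma adjusted p = 0.125), WT replicate 2 (0.0760), WT replicate 3 (0.0976), KO replicate 2 (0.0854) or KO replicate 3 (0.0879), while the fold change stayed between 0.98 and 1.11.

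The serum amyloid A genes did not pass, and their spread among the libraries labelled KO was wide. Saa1 (chromosome 7, 46740497 to 46742980, minus strand), the major acute phase form with Saa2, was at 34846, 35500 and 39034 normalized counts in the libraries labelled WT. In those labelled KO it was at 31979, 93486 and 9836, so that replicate 2 lay above and replicates 1 and 3 below the whole WT range. Its log2 fold change was -0.24 ± 0.69 (limma adjusted p = 0.891). Saa2 (chromosome 7, 46751790 to 46754313, plus strand) was at 35807, 27494 and 31051 in the libraries labelled WT and at 15502, 91701 and 3520 in those labelled KO, where the order of the KO libraries was that of Saa1. The highest KO library exceeded the lowest 26.0-fold for Saa2 and 9.50-fold for Saa1, against 1.30-fold and 1.12-fold among the libraries labelled WT. Saa2's log2 fold change was -0.87 ± 0.99 (limma adjusted p = 0.708). The group means of both genes were higher in the KO libraries while the log2 fold changes were below 0, so no direction is given for either. Their coding sequences are identical at 95.1% of 366 bases, and 9.11% of the 50-base windows of the Saa1 transcript also occur in Saa2, so part of the reads could have been assigned to either gene.

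Saa3 (chromosome 7, 46711998 to 46715700, minus strand), a form made outside hepatocytes as well, was at 3625, 7165 and 16186 normalized counts in the libraries labelled WT. In the libraries labelled KO it was at 3405, 1654 and 3555, each below the lowest WT library, replicates 1 and 3 by little. The log2 fold change of -1.46 ± 0.53 did not pass (limma adjusted p = 0.191). The authors' deposited table gives Saa3 a log2 fold change of -1.65 with an adjusted p of 0.00878; DESeq2 run here on the recovered reads gave -1.64 with an adjusted p of 0.138.

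Saa4 (chromosome 7, 46727998 to 46732603, minus strand), the constitutive serum amyloid A of liver, was at 10041, 6389 and 7630 normalized counts in the libraries labelled WT and at 8813, 16312 and 11083 in those labelled KO. The groups overlapped, with KO replicate 1 inside the WT range (0.57 ± 0.25, limma adjusted p = 0.270).

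Of the orosomucoid genes, Orm1 (chromosome 4, 63344560 to 63348163, plus strand) was at 29316, 29031 and 26050 normalized counts in the libraries labelled WT and at 34056, 49684 and 31704 in those labelled KO. Orm2 (chromosome 4, 63362449 to 63365878, plus strand) was at 5460, 4769 and 4366, then at 7848, 17075 and 5982. In both genes every KO library was above every WT library and KO replicate 2 was the highest, yet neither passed (0.42 ± 0.18, limma adjusted p = 0.264 for Orm1, and 0.94 ± 0.34, 0.198 for Orm2). Coding sequences of the pair match at 89.9% of 621 bases and 20.4% of 50-base windows are shared, so their split of reads is uncertain.

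Lcn2 (chromosome 2, 32384633 to 32388252, minus strand) was at 6330, 4399 and 11545 normalized counts in the libraries labelled WT and at 8309, 17296 and 6558 in those labelled KO. The groups overlapped (0.52 ± 0.43, limma adjusted p = 0.589). Steap4 (chromosome 5, 7960457 to 7982213, plus strand) was at 1897, 1414 and 2597, then at 2126, 4386 and 3015, also with overlap (0.67 ± 0.29, limma adjusted p = 0.275). The authors' deposited table gives Steap4 a log2 fold change of 0.69 with an adjusted p of 0.0307, where DESeq2 on the recovered reads here gave 0.70 with an adjusted p of 0.107.

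One library carried much of the spread. KO replicate 2 was the highest of its group for 9 of the 10 genes and the lowest for the tenth, Saa3, and KO replicate 3 was the lowest for 6. Without KO replicate 2, Hp was the 1 member still called, the median log2 fold change of the 10 was 0.28, and those of Lcn2, Orm1 and Orm2 were 0.11, 0.23 and 0.50. Markers of other cells moved with the labels in this table. The summed level of 9 macrophage markers was 4491 to 8822 normalized counts in the libraries labelled WT and 31912 to 56439 in those labelled KO, and 6 of the 9 were called higher. The 8 neutrophil markers summed to 77.6 to 127 and to 284 to 696, with 1 of 4 tested called higher, and the 8 hepatocyte markers to 1632534 to 1807417 and to 1697900 to 2138480, with 1 called higher. Stellate cell markers (1879 to 3634, then 3761 to 4898) and cholangiocyte markers (458 to 762, then 912 to 1635) were also higher in sum in every KO library, though no single one was called. The 2 of 6 adipocyte markers in the table were lower in sum (90.4 to 116, then 41.8 to 62.2). Endothelial markers (1946 to 3563, then 2780 to 4821) and B or plasma cell markers (83.7 to 218, then 210 to 583) overlapped in sum. Each of these lists had 1 marker called higher. Their part in the values of the acute phase genes was not tested.

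**Figure D2:**
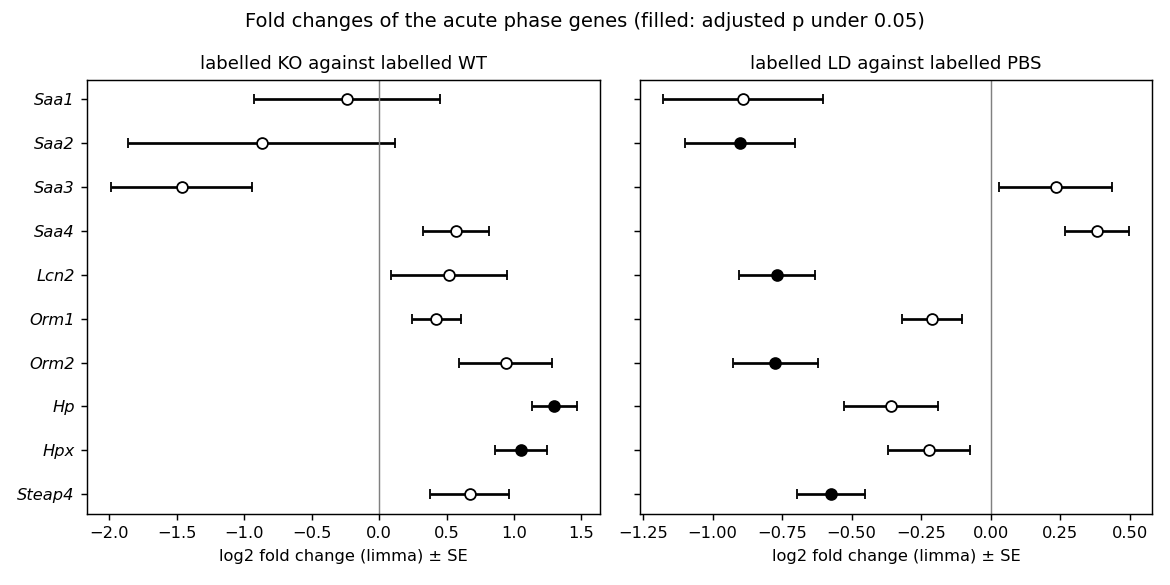
Log2 fold change (limma) ± SE of each acute phase gene in both bulk comparisons, filled where the adjusted p is under 0.05. Hp and Hpx pass on the left, and Saa2, Lcn2, Orm2 and Steap4, all below 0, pass on the right.

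The other genes of the acute phase response, in lists of known members, gave the setting of these values. Calls in these lists stood beside 3.02% called higher and 0.701% called lower over all genes tested. Among the cytokine ligands, 3 of 5 tested were higher in the libraries labelled KO: the interleukin 1 genes Il1b (28.4 ± 13.7 to 288 ± 122 normalized counts, log2 fold change 3.35 ± 0.44, limma adjusted p = 0.0122) and Il1a (1.74 ± 0.25, 0.0160), and Tnf (2.86 ± 0.58, 0.0420), which encodes tumour necrosis factor. Il6 was too low to test. Of 8 feedback inhibitors and early targets, 5 rose and none fell: Tnfaip3, an inhibitor of NF-kB signalling (2.49 ± 0.25, limma adjusted p = 0.0059), the interleukin 1 receptor antagonist Il1rn (1.27 ± 0.21), Junb (1.19 ± 0.20), the NF-kB inhibitor Nfkbia (0.89 ± 0.11) and Bcl3 (0.68 ± 0.14), the last named beyond the rule for named genes. Of 9 transcription factors, 2 rose: Nfkbiz, an NF-kB cofactor (1.69 ± 0.21), and Stat3 (0.56 ± 0.11, limma adjusted p = 0.0358; 0.0536 with the replicate number as a block).

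Receptors of these cytokines showed a single call of 10, the leukaemia inhibitory factor receptor Lifr, which fell by 0.63 ± 0.11 on the log2 scale (limma adjusted p = 0.0260). Of 8 receptors and partners of the acute phase proteins, 2 rose: Fpr2, a receptor for serum amyloid A on phagocytes (3.56 ± 0.58), and Cd163, the macrophage receptor that takes up haptoglobin-haemoglobin complexes (1.85 ± 0.34, limma adjusted p = 0.0313). Other positive acute phase proteins numbered 2 higher of 18: Orm3, another orosomucoid gene, whose reads may be shared with Orm2 (1.50 ± 0.20, limma adjusted p = 0.0128), and the copper carrier ceruloplasmin, Cp (0.89 ± 0.14, 0.0217). Among 8 negative acute phase proteins, whose output falls in inflammation, limma called none; 1 was higher at an unadjusted p under 0.05 and by edgeR and DESeq2, Trf, named after its value was seen. Alb, the most abundant of them, was at 1282020 ± 93274 and 1453948 ± 257841 (0.17 ± 0.38, limma adjusted p = 0.859). Of 7 tested genes of iron and copper handling none was called by limma, edgeR or DESeq2, with 1 higher and 1 lower at an unadjusted limma p under 0.05; Ftl1, the most abundant, gave 0.34 ± 0.24.

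Of the calls in these lists, those of Orm3, Il1b, Nfkbiz, Nfkbia and Tnfaip3 held without any 1 library, and the other 10 were each lost without KO replicate 2, at limma adjusted p of up to 0.139 (Tnf), and without KO replicate 3, at up to 0.110. Without WT replicate 3, 8 of the 10 were lost, all but Il1a and Cd163. The macrophage marker sums given above differed between the same libraries, and their part in these calls was not tested.

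**Figure D3:**
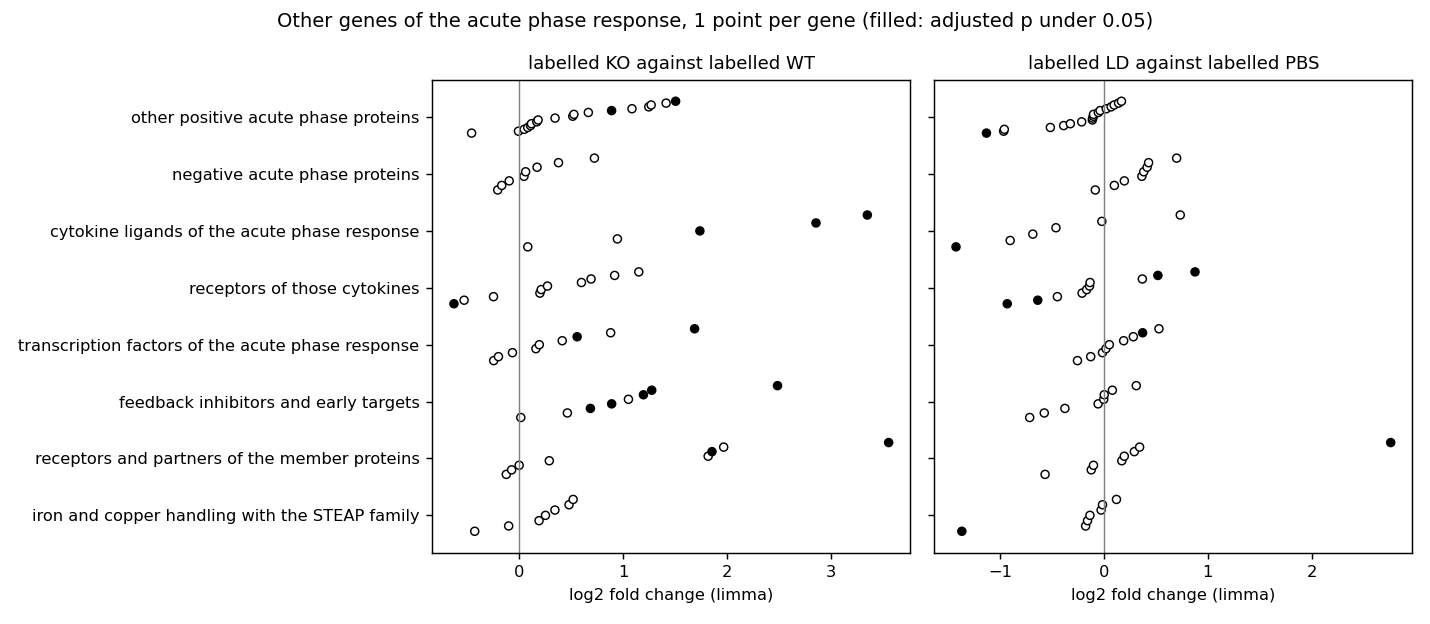
Log2 fold changes (limma) of the other genes of the acute phase response, 1 point per gene and 1 row per list, filled where the adjusted p is under 0.05. In the libraries labelled KO against WT, 3 ligands and 5 feedback genes pass above 0. In those labelled LD against PBS the calls lie on both sides.

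The second comparison, by its labels, asks how the liver of mice on chow differs after lipid droplets rather than saline. In it 4 of the 10 acute phase genes were lower in the libraries labelled LD: Saa2, Lcn2, Orm2 and Steap4. Among all 14900 genes tested, 4.16% were called, 2.21% lower and 1.95% higher. No member was called higher by limma or edgeR, while DESeq2 called 1, Saa4, which was also the 1 member higher at an unadjusted limma p under 0.05. The 3 libraries of each group lay apart for 5 of the 10 genes, the 4 called and Saa4, against 25.4% of all genes, 12.8% lower and 12.6% higher. The median log2 fold change of the 10 was -0.47, beside 0.0032 over all genes tested.

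Lcn2 was at 10407, 7242 and 10559 normalized counts in the libraries labelled PBS and at 5437, 5389 and 5480 in those labelled LD. The LD libraries were all lower and nearly equal, with a coefficient of variation of 0.837% against 19.9% among the PBS libraries. The log2 fold change was -0.77 ± 0.14 (limma adjusted p = 0.0187).

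Saa2 was at 4860, 2816 and 4467 normalized counts in the libraries labelled PBS and at 2447, 2134 and 1795 in those labelled LD, all lower (-0.90 ± 0.20, limma adjusted p = 0.0374). Its close copy Saa1 was at 6279, 2787 and 5320, then at 2975, 2716 and 1805. Here LD replicate 1 was above PBS replicate 2, and a log2 fold change of nearly the same size did not pass (-0.89 ± 0.29, limma adjusted p = 0.124).

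Orm2 was at 5366, 3424 and 4660 normalized counts in the libraries labelled PBS and at 2880, 2430 and 2444 in those labelled LD, without overlap (-0.77 ± 0.15, limma adjusted p = 0.0278). Orm1 was at 25565, 19667 and 22916, then at 19525, 18503 and 20574, with overlap (-0.21 ± 0.11, 0.326 by limma). Steap4 was at 8402, 7167 and 8421 in the libraries labelled PBS and at 6279, 5296 and 4616 in those labelled LD, again all lower (-0.57 ± 0.12, limma adjusted p = 0.0342).

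The 2 scavenger genes that had differed in the first table overlapped here. Hp was at 148159, 125559 and 134767 normalized counts in the libraries labelled PBS and at 95314, 91346 and 136762 in those labelled LD, where replicate 3 lay within the PBS range (-0.36 ± 0.17, limma adjusted p = 0.280). Hpx was at 193561, 138921 and 160475, then at 137080, 135665 and 146366 (-0.22 ± 0.15, limma adjusted p = 0.453).

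Saa4 was at 10643, 8889 and 7812 normalized counts in the libraries labelled PBS and at 12361, 11994 and 11037 in those labelled LD, each above the PBS range (0.38 ± 0.12, limma adjusted p = 0.106). Saa3 was far lower than the other serum amyloid A genes of this table in level per kilobase, at 207, 187 and 212 normalized counts, then at 278, 282 and 171, with overlap (0.23 ± 0.20, limma adjusted p = 0.580).

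The 4 calls changed with single libraries. Without PBS replicate 3 or LD replicate 2 no member passed in limma; without PBS replicate 1 only Saa4 did, higher at 0.50, and without LD replicate 1 only Steap4. Saa2, Lcn2 and Orm2 passed without PBS replicate 2 or LD replicate 3 and were lost without any of the others, at adjusted p of up to 0.146 for Saa2, 0.0795 for Lcn2 and 0.112 for Orm2. Steap4 passed without LD replicate 1 or 3 and was lost without PBS replicate 1, 2 or 3 or LD replicate 2, at up to 0.137. Within the libraries labelled PBS, replicate 2 was the lowest for 9 of the 10 genes and replicate 1 the highest for 7. Without PBS replicate 2, Saa1 passed as well (-1.24, limma adjusted p = 0.0451), and without LD replicate 3 so did Hp (-0.54, 0.0332). In the authors' deposited table Saa2, Lcn2, Orm2 and Steap4 have adjusted p-values of 3.21e-05, 3.56e-06, 3.56e-05 and 0.000921.

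Markers of other cells differed in this table too. Summed over 7 stellate cell markers, the level was 28385 to 33828 normalized counts in the libraries labelled PBS and 20215 to 21835 in those labelled LD, with 3 called lower. The 7 cholangiocyte markers summed to 9573 to 13345 and to 3851 to 7027, also with 3 called lower. The 7 T or NK cell markers summed to 913 to 1172 and to 582 to 851, with 0 called. The 9 macrophage markers overlapped, at 14200 to 22183 and 12755 to 16882, with 1 called higher and 1 lower. The 8 neutrophil markers overlapped, at 373 to 517 and 256 to 461, with none of 6 tested called by limma, and the hepatocyte markers at 2984305 to 3860531 and 3715494 to 4025843. Their part in the lower levels of Saa2, Lcn2, Orm2 and Steap4 was not tested.

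Calls among the other genes of the response, between the libraries labelled LD and PBS, stood beside 4.16% called over all genes tested. The interleukin 6 family ligand Clcf1 was the 1 of 6 tested ligands called, from 127 ± 27.4 to 46.7 ± 11.8 normalized counts (-1.43 ± 0.26, limma adjusted p = 0.0205). Of 10 receptors, Lifr (0.88 ± 0.17) and Il1rap, the interleukin 1 receptor accessory chain (0.52 ± 0.11), were higher, and the oncostatin M receptor Osmr (-0.93 ± 0.17) and the interleukin 22 receptor chain Il22ra1 (-0.64 ± 0.14) were lower. Cd163 rose from 19.6 ± 5.13 to 139 ± 37.7 (2.76 ± 0.29, limma adjusted p = 0.0029), and its call held without any 1 library. Fgl1, a fibrinogen-like liver protein, fell by 1.13 ± 0.23 as the 1 of 18 other positive acute phase proteins called, and Steap2, a relative of Steap4, fell by 1.37 ± 0.23 as the 1 of 7 iron and copper genes.

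Among the 8 feedback inhibitors and early targets limma called none, edgeR 1 lower and DESeq2 3 lower, the number also lower at an unadjusted limma p under 0.05; the most abundant, Bcl3, went from 2415 ± 147 to 1861 ± 145 (-0.38 ± 0.09, limma adjusted p = 0.0552). Among the 8 negative acute phase proteins limma and edgeR called none. Of them, 4 (Ahsg, Rbp4, Serpina6 and Ttr, named after their values were seen) were higher by DESeq2 and at an unadjusted limma p under 0.05. Alb gave 0.20 ± 0.29. Over all genes, DESeq2 also called more than limma did. The share of all genes at an unadjusted limma p under 0.05 was not counted in either comparison, so counts at that threshold are a description only. The calls named here other than that of Cd163 were each lost without PBS replicate 3, at limma adjusted p of up to 0.150 (Il22ra1), and without LD replicate 1, at up to 0.113. Without PBS replicate 2 all of these except Fgl1 were lost, and without LD replicate 3 none was.

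Nuclei of livers on the NASH diet gave a level of each gene by group of nuclei. The deposited table gives the mean level of each gene, in UMIs (counted molecules) per 10000 per nucleus, for 12 numbered groups in each of the 2 pooled libraries. The number of nuclei and the depth behind each level are unknown, and with 1 library per genotype there is no test. Groups 0 and 1 were hepatocyte-like by their markers. The leading genes of group 0 included Cyp2c38 and Lgr5, the latter known from hepatocytes near the central vein, and those of group 1 included Sds, Gls2 and Hal, enzymes known from hepatocytes near the portal vein. The others were named stellate-like (group 2), macrophage-like (group 3), endothelial-like (group 4), neutrophil-like (group 5), T or NK cell-like (group 6), cholangiocyte-like (group 7), B or plasma cell-like (group 9), dendritic cell-like (group 10) and mesothelial-like (group 11), and group 8 stayed unnamed. Ms4a7 was at 1.25 in the library labelled WT and 0.622 in that labelled KO in macrophage-like nuclei, lower in the library labelled KO.

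Averaged over both libraries, only Saa1 and Orm1 of the 10 genes were highest in a hepatocyte-like group, in both cases group 1. Every member was higher in group 1 than in group 0 in the library labelled WT, from 1.19-fold for Saa4 to 5.75-fold for Saa2. In the library labelled KO this held for all except Steap4, which was at 0.829 of the group 0 level. The hepatocyte transcript Alb was also higher in group 1, at 22.5 against 14.6 (labelled WT) and 46.7 against 17.2 (labelled KO). Relative to Alb, all members except Saa4 were higher in group 1 in the library labelled WT. In that labelled KO, Saa4, Steap4 and, by little, Orm1 and Orm2 were lower in group 1 relative to Alb. The share of all genes higher in group 1 was not counted. Saa1 was at 0.357 in group 1 and 0.0798 in group 0 of the library labelled WT, and at 0.338 and 0.0900 in that labelled KO. Saa2 levels were 0.211 and 0.174 in group 1 of the 2 libraries.

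Lcn2 stood apart in neutrophil-like nuclei. Its level there was 1.16 in the library labelled WT and 3.51 in that labelled KO, against 0.228 or less in every other group, and it was listed at 0 in 4 of the 24 group-by-library levels. Relative to Alb, a hepatocyte transcript detected in all groups, Lcn2 was at 7.96 and 8.80 per 100 of Alb in neutrophil-like nuclei and at 1.47 or less elsewhere. In the hepatocyte-like groups its level was 0.0186 and 0.104 in the library labelled WT.

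Steap4 stood apart in stellate-like nuclei, at 3.56 in the library labelled WT and 4.99 in that labelled KO. The unnamed group 8 was at 2.16 and 2.17 and neutrophil-like nuclei at 1.54 and 2.62. The hepatocyte-like groups were at 0.842 and 1.51 (group 0) and at 1.54 and 1.25 (group 1). Per 100 of Alb, Steap4 was at 65.9 and 32.0 in group 2 and 68.9 and 26.4 in group 8, against 5.76 and 8.80 in group 0 and 6.84 and 2.68 in group 1. Macrophage-like and endothelial-like nuclei were low, at 0.165 to 0.233 over both libraries.

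Hp and Hpx were detected in all 12 groups of both libraries. Hp was at 6.98 and 7.56 in neutrophil-like nuclei and at 3.09 and 3.48 in group 1. Hpx was at 5.46 and 6.34 in neutrophil-like nuclei and at 4.05 and 6.71 in group 1. Per 100 of Alb, Hpx ran from 9.45 in group 0 to 37.7 in group 5 of the library labelled WT. In that labelled KO it ran from 10.6 in group 0 to 21.8 in dendritic cell-like group 10, with group 5 at 15.9. Hp per 100 of Alb was highest in group 5 in both libraries, at 48.1 and 19.0, and was 9.25 and 7.29 in group 0. How much of the levels outside hepatocyte-like nuclei came from RNA of hepatocytes was not tested, and Alb itself was at 14.5 and 39.9 in neutrophil-like nuclei.

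**Figure D4:**
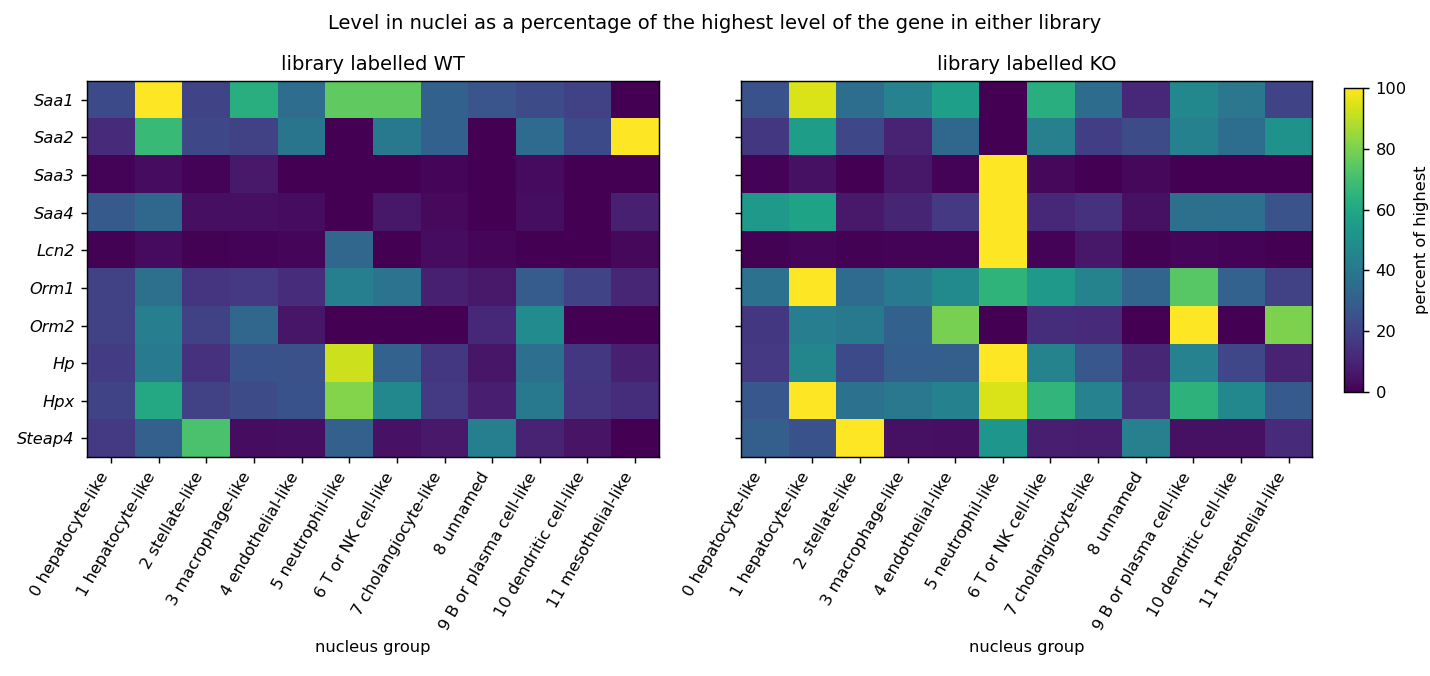
Level of each acute phase gene in the 12 nucleus groups of both libraries, as a percentage of that gene's highest level in either. Lcn2 and Hp peak in the neutrophil-like group of both libraries, and Saa3 peaks there only in the library labelled KO. Steap4 peaks in the stellate-like group and Saa1 in hepatocyte-like group 1 of both libraries. Orm1 peaks in group 1 only in the library labelled KO.

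**Figure D5:**
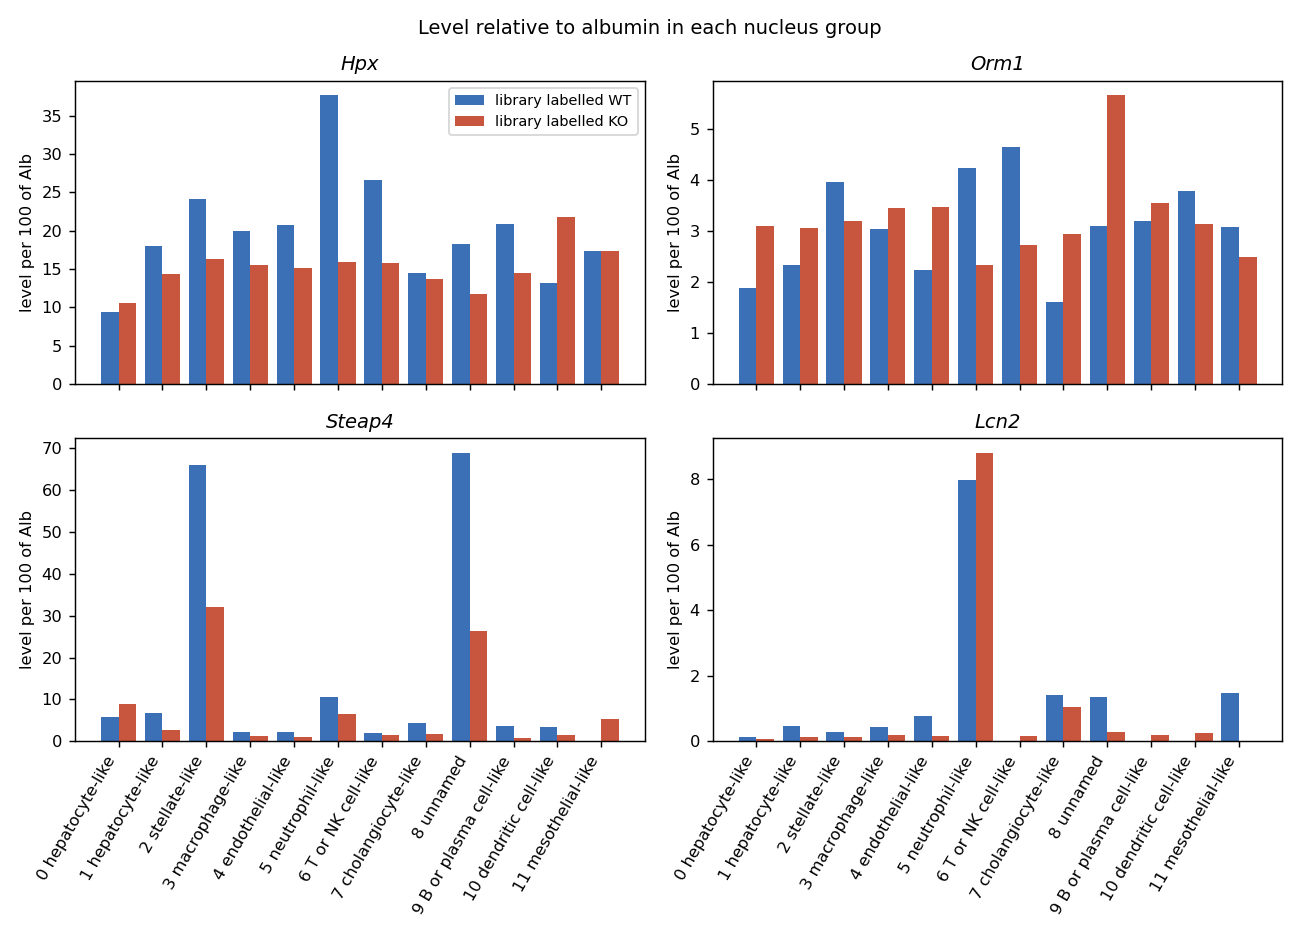
Levels of Hpx, Orm1, Steap4 and Lcn2 per 100 of Alb in each nucleus group, by library, with linear axes from 0. Orm1 stays between 1.60 and 5.65 in every group, while Steap4 rises to 68.9 in group 8 and Lcn2 to 8.80 in group 5.

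Of the remaining genes, Saa3 and Orm2 were low in most nucleus groups, while Orm1 was detected in every group of both libraries. Saa3 was at or under 0.0423 in all levels except neutrophil-like nuclei of the library labelled KO (0.625), and was listed at 0 in 11 of 24. Saa4 was at 0.241 and 0.286 in groups 0 and 1 of the library labelled WT and at 0.456 and 0.493 in that labelled KO, with a single value above these, 0.851, in neutrophil-like nuclei of the library labelled KO where the library labelled WT is listed at 0. Orm2 never exceeded 0.0924 and was listed at 0 in 8 of 24. Orm1 was at 0.524 and 1.43 in group 1, and kept between 1.60 and 5.65 per 100 of Alb in every group and library.

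Across libraries, 3 members, Saa4, Orm1 and Hpx, were higher in the library labelled KO in all 12 groups, as were 2.74% of the 7839 genes detected in every group. Hp was higher in 11. The median over groups of the log2 ratio of the library labelled KO to that labelled WT was 1.87 for Saa4, 1.26 for Orm1, 0.76 for Hpx and 0.29 for Hp. Alb and Apoa1, hepatocyte transcripts counted among the negative acute phase proteins, were higher in 12 of 12 groups too, Alb from 22.5 to 46.7 in group 1. Relative to Alb, the direction turned for Hp, which was lower in the library labelled KO in all 12 groups (in group 1, 7.44 against 13.7 per 100 of Alb). Hpx relative to Alb was lower in 9 groups and higher in 3 (in group 1, 14.4 against 18.0). Saa4 stayed higher relative to Alb in 9 groups and Orm1 in 7. Relative to Apoa1, Saa4 was higher in 8 groups, but Orm1 was higher in 4 and lower in 8. Hp was lower relative to Apoa1 in all 12 groups and Hpx in 11. The direction of Orm1 thus depended on the reference. With 1 pooled library each, the library and its label cannot be told apart.

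Genes whose levels followed the members most closely over the 24 levels, which come from only 2 libraries, are given here as a description. For Orm1 they were Apoa1, Apoc3 and Mup20 (Pearson's r 0.92 for each, of log2 levels). For Hpx they were Mup20 (0.91), Alb (0.90) and Apoa1 (0.88), and for Hp Scd1 (0.88), Tmbim6 (0.86) and Apoc3 (0.85). Lcn2 was followed most closely by Ndst1 (0.87), Ngp, a neutrophil granule gene (0.71), and Klhl2 (0.70). Steap4 was followed by Nr1h4, Hsd11b1 and C730002L08Rik at 0.74 to 0.75. Between members, Hp and Hpx had the highest r, 0.91, followed by Orm1 and Hpx at 0.87, while Saa1 and Saa2 had an r of 0.20 in these sparse levels. The closest genes to Saa4 were Gm36264 (0.88), Thrsp (0.79) and Ces3b (0.76). For the sparse Saa1, Saa2, Saa3 and Orm2 they were Gldc (0.73), Adamts6 (0.77), Cept1 (0.69) and Cr2 (0.64), and these weak relations are given as a description only.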

How the data were processed

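Groups follow the GEO labels. The tools named in the submitters' processing notes are FastQC, STAR, DESeq2, Cell Ranger and Seurat 4.0.1, with build mm10; the annotation and read counter are not given in the sources used here. The bulk signal values were deposited by the authors as normalized counts, that is gene counts divided by a size factor per library. In all 12 libraries 100% of values were whole multiples of 1 read within a tolerance of 0.01, which gives back the reads. Log2 fold changes, p-values and adjusted p-values of the authors stand in the same deposited tables. The nuclei signal was deposited by the authors as mean UMIs per 10000 by numbered group and library; 4 entries with a repeated symbol were left out, and how doublets were treated is not stated.

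Per table, limma 3.58.1 (eBayes with trend, 2-sided) in R 4.3.3 tested every gene that reached a normalized count of 10 in at least 3 of the 6 libraries, on log2 of the value plus 1, without covariates. The 10 genes, the companion lists and the rules were chosen with earlier results of these data known. The companion lists were other positive and negative acute phase proteins, cytokine ligands, their receptors, transcription factors, feedback inhibitors and early targets, receptors and partners of the member proteins, and iron and copper handling genes. From each list up to 4 called genes with the largest change are named, or the most abundant gene where none is called; 1 named gene is not reported here. Alternatives used edgeR 4.0.16 and DESeq2 1.42.0 on recovered reads, other filters, pseudocounts and scalings, a replicate block and leaving out each library. The limma fit was tested on simulated data. The chi-square per degree of freedom between 2 replicates was never under 16.9, so none is a copy.

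Nucleus groups were named where at least 3 markers reached 0.5 of the highest group's level and no other type had as many, a rule set after the table was seen. Ratios between nucleus libraries used a pseudocount, the 5th percentile of all nonzero levels. The 3 genes closest to each member were taken from the 2000 with the highest levels. Gene positions and merged exon lengths come from the GENCODE M21 annotation of mm10, and promoter sequences from RefSeq (GRCm38.p6).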

Additional observations from a re-analysis of the deposited data

Results flagged for a closer look

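Steap4 differed in direction between the hepatocyte-like nucleus groups. It was higher in the library labelled KO in group 0 (1.51 against 0.842) and lower in group 1 (1.25 against 1.54), so that the log2 ratios of KO to WT differed by 1.14 between the groups. With 1 pooled library per genotype and unknown depth, the difference was not tested.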

How the results depend on the processing

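The count of 2 called members between the libraries labelled KO and WT stayed at 2 under every other pseudocount, filter, scaling and tool tried, and ran from 1 to 2 when 1 library was left out. Between the libraries labelled LD and PBS, the count of 4 was 5 with quantile normalization (Hp added) and with DESeq2 (Saa4 added, higher), 3 with robust empirical Bayes, an alternative chosen after seeing the data (Saa2 lost, adjusted p = 0.0721), and 0 to 5 when 1 library was left out. Over all genes, DESeq2 called 1241 and 1221 where limma called 589 and 620, and leaving out a library gave 124 to 530 and 134 to 1226. The log2 fold changes of Saa1 and Saa2 between the libraries labelled KO and WT changed sign with edgeR (0.34 and 0.26), DESeq2 (0.32 and 0.25) and without KO replicate 3 (0.59 and 0.27), and passed in none of these; leaving out 1 library gave -1.04 to 0.59 and -2.08 to 0.27, and the cause was not tested. Single calls in the companion lists were lost for Tnf with a pseudocount of 0.1 (adjusted p = 0.0609), for Cd163 (0.0555, KO) and Fgl1 (0.0905) with robust empirical Bayes, and for Il1rap (0.0612) with quantile normalization. For the libraries labelled KO, DESeq2 called 4 of 18 other positive proteins, 4 of 9 transcription factors and 4 of 10 receptors, where limma called 2, 2 and 1; for those labelled LD it called 3 of 18 other positive proteins, where limma called 1. Same-numbered libraries did not deviate together (correlations 0.12, -0.03 and -0.02 in the first table, 0.05, -0.04 and 0.13 in the second). With the replicate number as a block, the counts of members stayed at 2 and 4, and all genes called rose to 822 and 793.

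In nuclei, 2 members were highest in a hepatocyte-like group on average, 4 in the library labelled KO alone, 1 relative to Alb and 0 relative to Apoa1, the last 2 chosen after seeing the data. The median log2 ratio of the members between libraries was 0.17 over the hepatocyte-like groups, from 0.15 to 0.17 with other pseudocounts and centring, and 0.60 over all 12 groups. The depth of the nuclei is unknown.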

Other observations

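Other genes of the acute phase response were spread over the nucleus groups. Of 18 other positive acute phase proteins, 11 were highest in a hepatocyte-like group, among them the fibrinogen chains Fga, Fgb and Fgg and the iron hormone hepcidin (Hamp, 5.35 in the library labelled WT and 18.3 in that labelled KO in group 1). Ceruloplasmin (Cp) was highest in cholangiocyte-like nuclei, at 30.8 and 25.4, and complement C3 in mesothelial-like nuclei, at 12.8 and 23.8. Il1b, 1 of 2 ligand genes highest in neutrophil-like nuclei, was at 16.5 and 23.0 there. Of 8 feedback inhibitors and early targets, 6 were highest in neutrophil-like nuclei. Of the negative acute phase proteins, 2 were highest there too, Ttr and Rbp4, and 6 in a hepatocyte-like group. The share of all genes highest in each group was not counted, so these counts are a description only. Cd163, the haptoglobin-haemoglobin receptor, was highest in macrophage-like nuclei, at 0.527 and 3.26. Genes were named here after their values were seen.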
